A study of Bos taurus with 2 samples.

Results

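The genes of the cell junctions were followed on 2 bovine Agilent arrays, 1 of crossbred and 1 of Zebu testis. The members are all array genes named as a claudin (CLDN), a tight junction scaffold (TJP), a connexin (GJA, GJB, GJC or GJD), a cadherin (CDH) or a desmosomal cadherin (DSC or DSG), together with OCLN, F11R, JAM2, JAM3 and CXADR. CLDN11 and CDH5 were left out, since they serve as Sertoli and endothelial markers. This gave 74 genes of the 32429 gene names on the array, each with 1 to 5 of its 51282 probes, on 161 of its 61657 spots. The crossbred bulls were Holstein Friesian crosses with 50 to 75% exotic inheritance, and the Zebu bulls were of the Tharparkar breed. Bulls of both groups were 24 months old, their testes came from unilateral castration, and equal amounts of RNA from 3 bulls were pooled for each array. The pools were labelled with Cy3, hybridised on the same slide and scanned together, so each group is 1 measurement of whole testis. No difference here has a replicate check, no test was made, and precision is limited by the number of arrays.

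Cell junctions hold the seminiferous epithelium together. Tight junctions between neighbouring Sertoli cells, built from claudins and occludin on a scaffold of TJP proteins, form the blood-testis barrier, behind which meiosis and spermatid development take place. Adherens junctions of cadherins and nectins, desmosomes and connexin gap junctions lie beside them at the barrier and also join Sertoli cells to germ cells. The barrier opens and closes as germ cells move through it.

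The probes that the results turn on are shown first, since several results below rest on whether probes of the same gene agree. For each probe of 60 bases the first 30 bases are printed 5′ to 3′ as the array annotation lists them, and capitals mark the run that the probe shares with another probe of the same gene. The first set comes from CLDN19, CLDN5 and OCLN, tight junction genes whose bright probes all had a higher signal in crossbred.
CLDN19 probe 1: agaccagttgttaaattgtccgcctccacc
CLDN19 probe 2: ccctggtgacccAGGAGTTCTTCAACCCCA
CLDN19 probe 3: AGGAGTTCTTCAACCCCAGCACACCTGTCA
CLDN5 probe 1: TCGCAGCTTGTGGGGGGTGTGCGACTCTGC
CLDN5 probe 3: cccacctTCGCAGCTTGTGGGGGGTGTGCG
OCLN probe 1: gagcaaattgtcacacattaagaagatggt
OCLN probe 3: aggaatataagagcctacaagcagaacttg

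The desmosomal probes and those of both type II cadherins past the threshold and bright on both arrays follow.
DSC2 probe 1: attctgaagtgtttatactgcattcttgat
DSC3 probe 1: aagagcacatgccatcacaagattacgtcc
DSC3 probe 2: ggccttgactttttaaataatttggaagcc
DSG2 probe 1: gccaagcaaaacctggtcttaaacttccta
CDH6 probe 1: gcctcggttcaaaaagctcgcggatatgta
CDH12 probe 1: ttaatgataatgagccgaagtttttggatg

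Positions are those that the array annotation gives on the build HGSC Btau_3.1, and they hold for the whole probe. CLDN19 probe 1 lies at chr3:110445978-110446037 on the plus strand. Probes 2 and 3 of CLDN19 lie at chr3:110443252-110445122 and chr3:110443264-110445134, intervals longer than the probes, so both cross an exon junction. They share 48 of their 60 bases and are close to 1 measurement. CLDN5 probes 1 and 3 share 53 bases and lie at chr17:76101289-76101342 and chr17:76101290-76101349 on the minus strand. OCLN probe 1 lies at chr20:10817925-10817984 and probe 3 at chr20:10821842-10821901, both on the minus strand. The plus strand of chromosome 24 holds DSC2 at chr24:27130928-27130987 and DSC3 at chr24:27201154-27201213 and chr24:27201258-27201316, and the minus strand holds DSG2 probe 1 at chr24:26684142-26684201. CDH6 lies at chr20:44747851-44747910 on the minus strand and CDH12 probe 1 at chr20:54375554-54375613 on the plus strand. Whether a probe falls in coding or untranslated sequence was not analysed here. The array is of Bos taurus, and whether each probe matches Zebu sequence equally well was not analysed either.

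Every value below is a normalized log2 signal, in which 0 is the 75th percentile of the array, or a difference of 2 such signals, crossbred minus Zebu. Levels are compared only within a probe. A gene was read from the probe whose mean over both arrays was highest. It was counted as higher or lower where that difference reached 1.5 in size and the brighter array stood well above background. If the dimmer array did not, the difference is given as a bound. Spots of the same probe varied with an SD of 0.29 in crossbred and 0.18 in Zebu, or 0.34 for a difference, which covers spotting and scanning but neither labelling nor animals. None of the 161 spots lay in the dark patch of the crossbred array or in the bright patch, and none was an outlier.

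Of the 74 genes, 57 were detected. Both arrays showed 52 of them well above background, 3 were so in crossbred only and 2 in Zebu only, and 17 were dim on both. The junction genes did not move together. Among the 52, 32 had a higher signal in crossbred and 20 in Zebu, and 20 differed by less than the spot SD of 0.34. The median over the 57 was 0.17, beside -0.05 over all 24751 detected gene names. By the threshold, CLDN19, CDH6, CDH12, CDH9 and DSC3 were higher in crossbred, which is 5 of 57 or 8.77%, where 7.12% of all detected gene names were higher. DSC2 and DSG2 were lower, which is 2 of 57 or 3.51%, where 2.92% of all were lower. At this threshold both shares are near those of the whole array. At a threshold of 1 on the log2 scale, 12 of the 57 (21.1%) were higher and 2 (3.51%) lower, where 12.8% of all detected gene names were higher and 8.87% lower. At a linear fold of 1.5, 21 (36.8%) were higher and 11 (19.3%) lower, where 21.4% of all were higher and 22.2% lower. At a log2 threshold of 2, 1 gene (1.75%) was counted in each direction, where 3.49% of all were higher and 1.20% lower. How the shares compare with the whole array thus depended on the threshold, and no test of this was possible with 1 array per group. In bulk tissue, fewer cells of a type and less RNA per cell cannot be told apart.

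**Figure D1:**
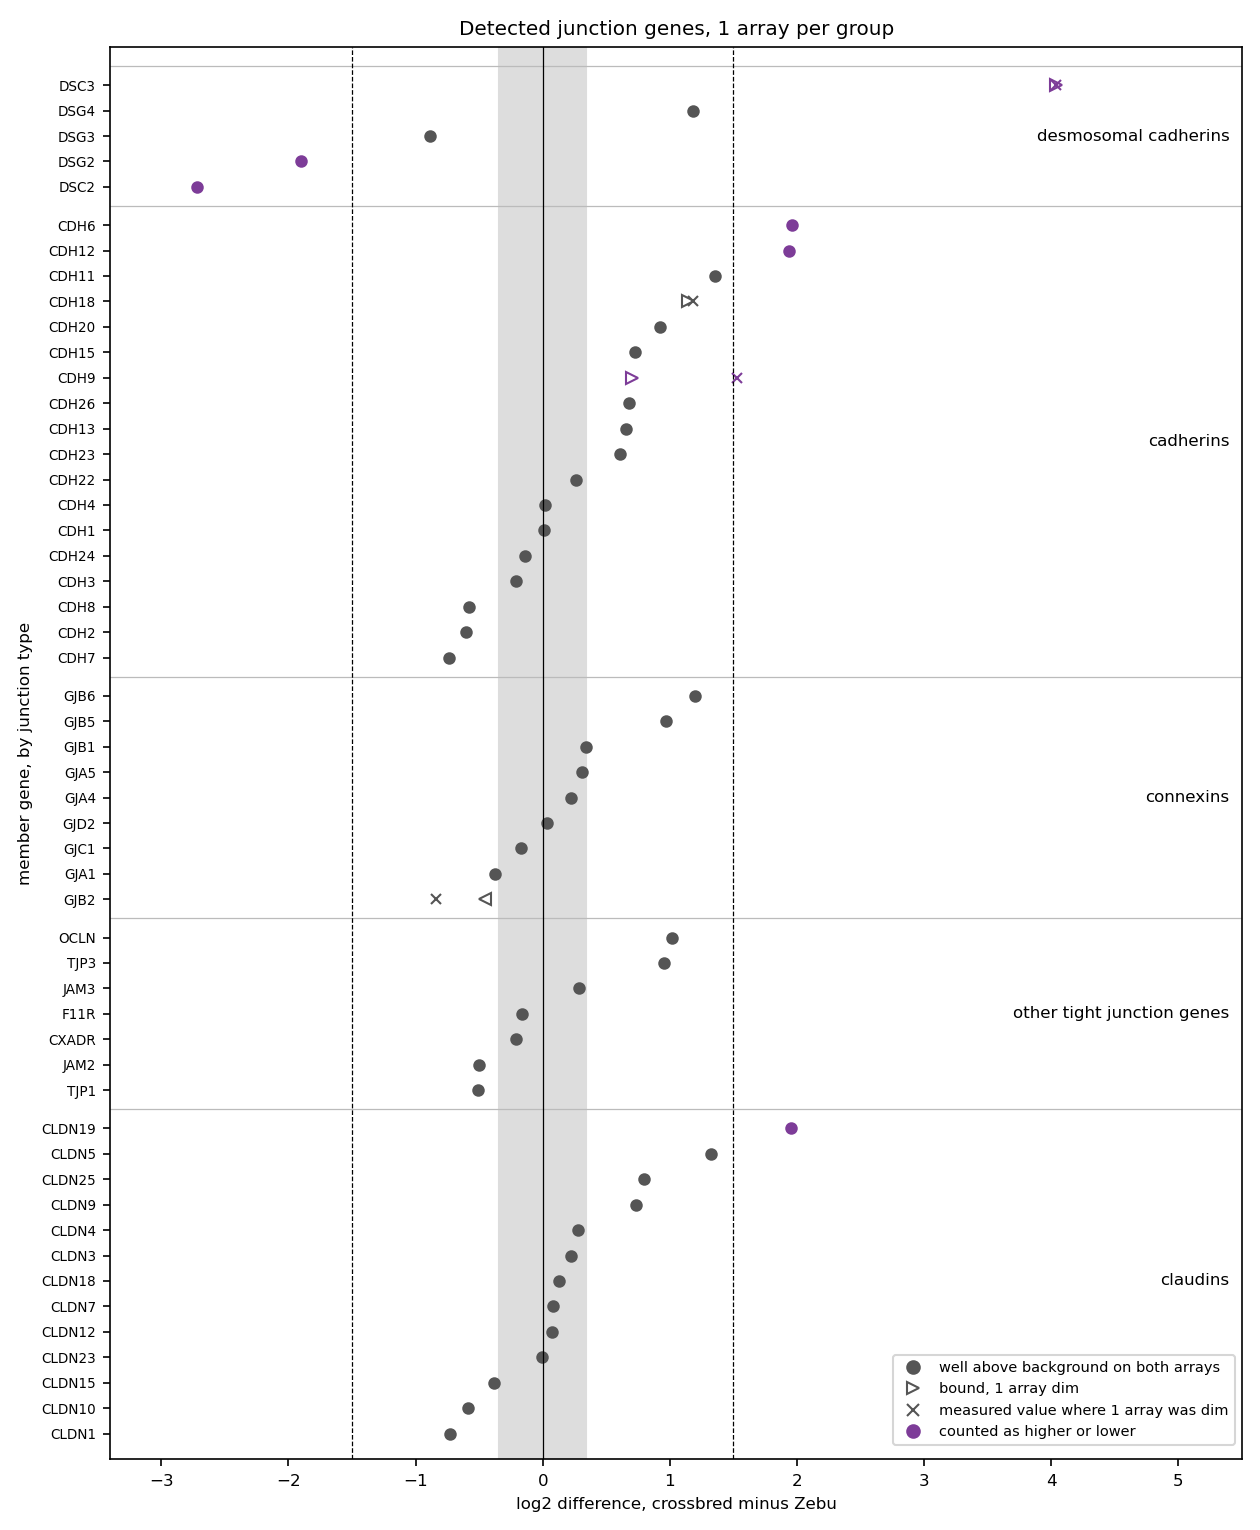
The log2 difference (horizontal axis, crossbred minus Zebu) of 52 of the 57 detected junction genes (vertical axis), grouped by junction type. Filled points were well above background on both arrays, open triangles are bounds with a cross at the measured value, the grey band is 1 spot SD of 0.34 and the dashed lines are the threshold of 1.5. The claudins and connexins sit around 0, the cadherins lean to the right, and the 5 detected desmosomal cadherins spread from -2.72 to a bound of 4.04.

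Claudins are the membrane proteins that seal the tight junction. Of 20 claudins on the array, 13 were detected, all of them on both arrays, with a median difference of 0.13. CLDN19, a claudin best known from the kidney, had a signal of -0.50 in crossbred and -2.45 in Zebu, a difference of 1.95 or 3.86-fold. Its probes 2 and 3 differed by 2.58 and 2.72, so all 3 readings lay past the threshold. CLDN19 was the claudin with the highest difference and the only one past the threshold.

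CLDN5, a claudin of endothelium and of Sertoli cells in rodents, had a signal of 2.22 in crossbred and 0.89 in Zebu, a difference of 1.33. Its probe 3 read 2.30 and 0.77, a difference of 1.54, and probe 2 read -2.68 and -3.66, a difference of 0.98. The gene therefore lay on either side of the threshold with the probe read, and above 0 with all 3. Endothelial markers were read beside it. All 8 were detected, their median was -0.07, and the 7 on both arrays ran from -0.38 for KDR to 0.28 for CDH5. TIE1, well above background only in Zebu, had a bound of -1.07. The part of endothelial cells in the CLDN5 difference was not tested.

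CLDN3, which is regulated by androgen in the mouse Sertoli cell, differed by 0.22, less than the spot SD, and its signals of -5.41 and -5.63 were close to the background floor. CLDN1 had the lowest difference of the claudins, -0.73, from -5.00 in crossbred and -4.27 in Zebu. The remaining 9 detected claudins ran from -0.59 for CLDN10 to 0.80 for CLDN25. The single CLDN25 probe shares 30 bases with a probe listed under another name, which differed by -0.15. The 7 dim on both arrays were CLDN2, CLDN6, CLDN8, CLDN16, CLDN17, CLDN22 and CLDN24.

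The other tight junction genes went both ways. OCLN, the gene of occludin, read -0.28 in crossbred and -1.30 in Zebu at probe 1, a difference of 1.02, and -0.24 and -1.73 at probe 3, a difference of 1.49. A further OCLN probe was dim on both arrays. Both bright probes therefore put occludin higher in the crossbred pool, short of the threshold. TJP1, a scaffold protein under occludin and the claudins, had the opposite sign. It read 1.36 in crossbred and 1.87 in Zebu, a difference of -0.51. Its other probes on both arrays differed by -0.19, -0.98 and -1.45, and another was dim in crossbred with a bound of -0.68. All 5 probes of TJP1 were thus lower in the crossbred pool, none past the threshold. TJP3, a further scaffold gene, had 0.10 in crossbred and -0.86 in Zebu, a difference of 0.96, with 0.89 and 1.02 at its separate spots and 0.52 at another probe.

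F11R, JAM2 and JAM3 encode the junctional adhesion molecules, and JAM2 on Sertoli cells binds JAM3 on spermatids. JAM2 read 2.12 in crossbred and 2.62 in Zebu, a difference of -0.50. JAM3 read 3.33 and 3.04, a difference of 0.29, and its other probes gave 0.64 and -0.14, so its probes did not settle a direction. F11R differed by -0.16, and its other probes by 0.15 and -0.09, all within the spot SD. CXADR, a receptor for coxsackievirus and adenovirus found at tight junctions, differed by -0.21 and at its other probe by -0.60.

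**Figure D2:**
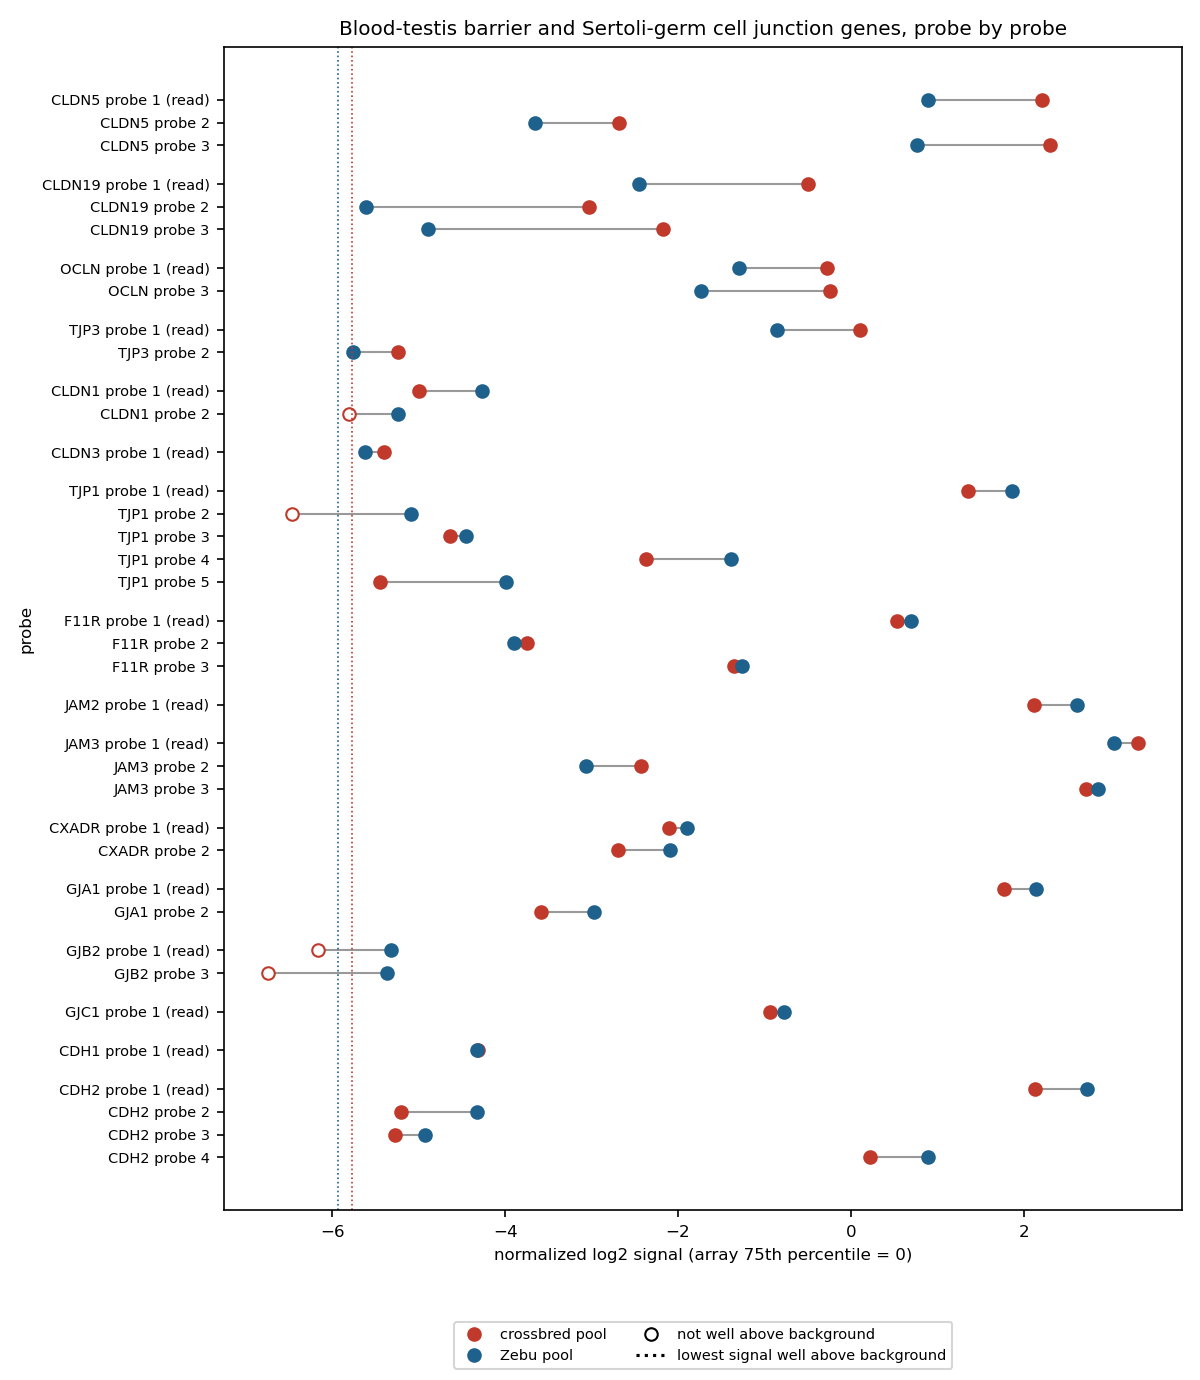
The normalized log2 signal (horizontal axis) of the crossbred pool (red) and the Zebu pool (blue) at each probe with a signal well above background on at least 1 array (vertical axis), for the tight junction, gap junction and cadherin genes of the barrier. Open circles were not well above background and dotted lines are the floors of -5.78 in crossbred and -5.94 in Zebu. Red lies to the right at every probe shown of CLDN5, CLDN19, OCLN and TJP3, and to the left at every probe of TJP1, GJA1 and CDH2.

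Of 17 connexins, the proteins of gap junction channels, 13 were detected, 11 of them on both arrays, and none was counted as higher or lower. Their median was 0.17. GJA1, the main connexin between Sertoli cells and between Sertoli and germ cells, read 1.77 in crossbred and 2.14 in Zebu, a difference of -0.37 with -0.27 and -0.47 at its spots. Another probe differed by -0.62. GJC1 read -0.94 and -0.77, a difference of -0.17 within the spot SD. GJB2 was well above background only in Zebu, with a bound of -0.46 at the probe read and -0.41 at another.

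GJB6 differed by 1.20 at the probe read, whereas its other probe was well above background only in Zebu. There the measured difference was -2.44 and the bound, -0.25, was under the spot SD. GJA4, GJA5, GJB1, GJB5 and GJD2 ran from 0.04 for GJD2 to 0.97 for GJB5. GJA3, GJA10, GJC3 and GJD4 were dim on both arrays.

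Cadherins are the calcium-dependent adhesion proteins of the adherens junction. Of 22, 18 were detected, 16 on both arrays, with a median of 0.63, the highest median of the 5 junction types. The classical type I and the type II cadherins differed in this, a split that was not among the 5 planned junction types. The 5 type I cadherins, all detected, had a median of 0.01 and none past the threshold. The 10 detected of 12 type II cadherins had a median of 0.81, and 3 of them, CDH6, CDH9 and CDH12, were higher, beside a median of -0.05 and a share of 7.12% over all detected gene names. With normexp background correction, and with a gene's probes averaged, CDH6 alone of these passed the threshold. Whether these medians differ beyond error could not be tested with 1 array per group.

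CDH2, or N-cadherin, the main cadherin between Sertoli and germ cells, read 2.13 in crossbred and 2.74 in Zebu, a difference of -0.61. Its other probes differed by -0.88, -0.34 and -0.67, so all 4 probes were lower in the crossbred pool. CDH1, or E-cadherin, differed by 0.01, with -4.32 and -4.33, and its other 2 probes were dim on both arrays. The other type I cadherins ran from -0.21 for CDH3 to 0.73 for CDH15. The spots around CDH15 had a median difference of 1.59, the only such place beyond 1 among the member probes, and its other probe differed by 0.39.

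Among the type II cadherins, which are best known from nervous tissue and kidney, CDH6 had the highest difference of those well above background on both arrays. It read -0.77 in crossbred and -2.73 in Zebu, a difference of 1.96 or 3.88-fold, at its single probe. CDH12 read -2.23 and -4.17 at probe 1, a difference of 1.93 or 3.82-fold. Its probe 3 was well above background only in crossbred, with a bound of 1.58, and its probe 2 read -4.92 and -4.88, a difference of -0.04. CDH12 was therefore past the threshold at 2 of 3 probes. With all probes averaged it came to 1.16.

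CDH9 passed the threshold only by its measured difference of 1.53. Its signal was -5.24 in crossbred and -6.77, not well above background, in Zebu, and the bound was 0.70, or at least 1.63-fold. Its other probes were dim on both arrays. CDH18 was likewise bright only in crossbred, with a bound of 1.15.

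CDH11, the cadherin of mesenchymal cells, had 5 probes well above background on both arrays that disagreed. The probe read, at chr18:31703675-31703734, had 0.20 in crossbred and -1.15 in Zebu, a difference of 1.35. The probe at chr18:31703047-31703106 had -1.26 and 0.11, a difference of -1.37. The remaining probes differed by 0.48, 0.18 and 0.87, and the mean of all 5 was 0.30. Since the gene is listed on the minus strand, the probe of opposite sign lies farthest toward its 3′ end among these 5.

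CDH8 also disagreed between probes. The probe read, which differed by -0.58, is annotated at chr10:55856562-55856621, while the others of that name lie on chromosome 18. Of those, the probe at chr18:29248159-29248218 read -3.68 in crossbred and -6.52 in Zebu, where it was not well above background, at least 4.80-fold higher, and the others were dim. Whether the chromosome 10 probe reads CDH8 cannot be settled here, and without it CDH8 would have been counted as higher.

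CDH7 had the lowest difference of the cadherins, -0.74, with -0.90 at its second probe. A CDH7 probe shares 56 bases with a probe listed under another name, which differed by -0.82. The other type II cadherins detected, CDH20, CDH22 and CDH24, differed by 0.92, 0.26 and -0.14, and CDH10 and CDH19 were dim. Outside both types, CDH13, CDH23 and CDH26 differed by 0.65, 0.61 and 0.68, and CDH16 and CDH17, cadherins of kidney and intestine, were dim on both arrays.

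Desmosomal cadherins showed the widest spread. Desmocollins (DSC) and desmogleins (DSG) pair across the gap between cells to form desmosomes. DSC2 and DSG2 are the pair found in simple epithelia and heart, while DSC1, DSC3, DSG1 and DSG3 are chiefly those of stratified epithelia and DSG4 that of hair. DSC2 read -4.53 in crossbred and -1.81 in Zebu, a difference of -2.72 or 6.59-fold, at its single probe, and 3.17-fold after normexp background correction. DSG2 read -2.40 and -0.49 at probe 1, a difference of -1.90 or 3.74-fold. DSG2 probe 3 was well above background only in Zebu, with a bound of -0.54, and the last was dim on both arrays. With the mean of all probes DSG2 came to -1.22 and was no longer counted as lower.

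DSC3 went the other way. Its probe 1 read -1.89 in crossbred and -5.93, not well above background, in Zebu, and was at least 16.4-fold higher in crossbred. Probe 2 read -2.83 and -6.24, at least 8.62-fold higher. These bounds hold for the processed signal, and after normexp background correction the bound of the probe read was 2.08, or 4.21-fold. This was the largest difference among the junction genes, and it was seen at both probes of DSC3, which lie close together. DSG4 read -3.37 and -4.55, a difference of 1.18, and DSG3 read -5.56 and -4.67, a difference of -0.89. DSC1 and DSG1 were dim on both arrays at all their probes. Keratins and TP63 of stratified epithelium were measured beside them. Of 5 such markers on the array 3 were detected, with KRT5 at -0.17, KRT14 at 0.52 and TP63 at 0.84, while KRT10 and KRT6A were dim on both. Their summed signal, in units of the 75th percentile, was 0.517 in crossbred and 0.382 in Zebu. For simple epithelium, 6 of 7 markers were detected, from -0.46 for KRT18 to 0.82 for KRT8, and EPCAM differed by 0.42. Their part in the desmosomal differences was not tested.

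**Figure D3:**
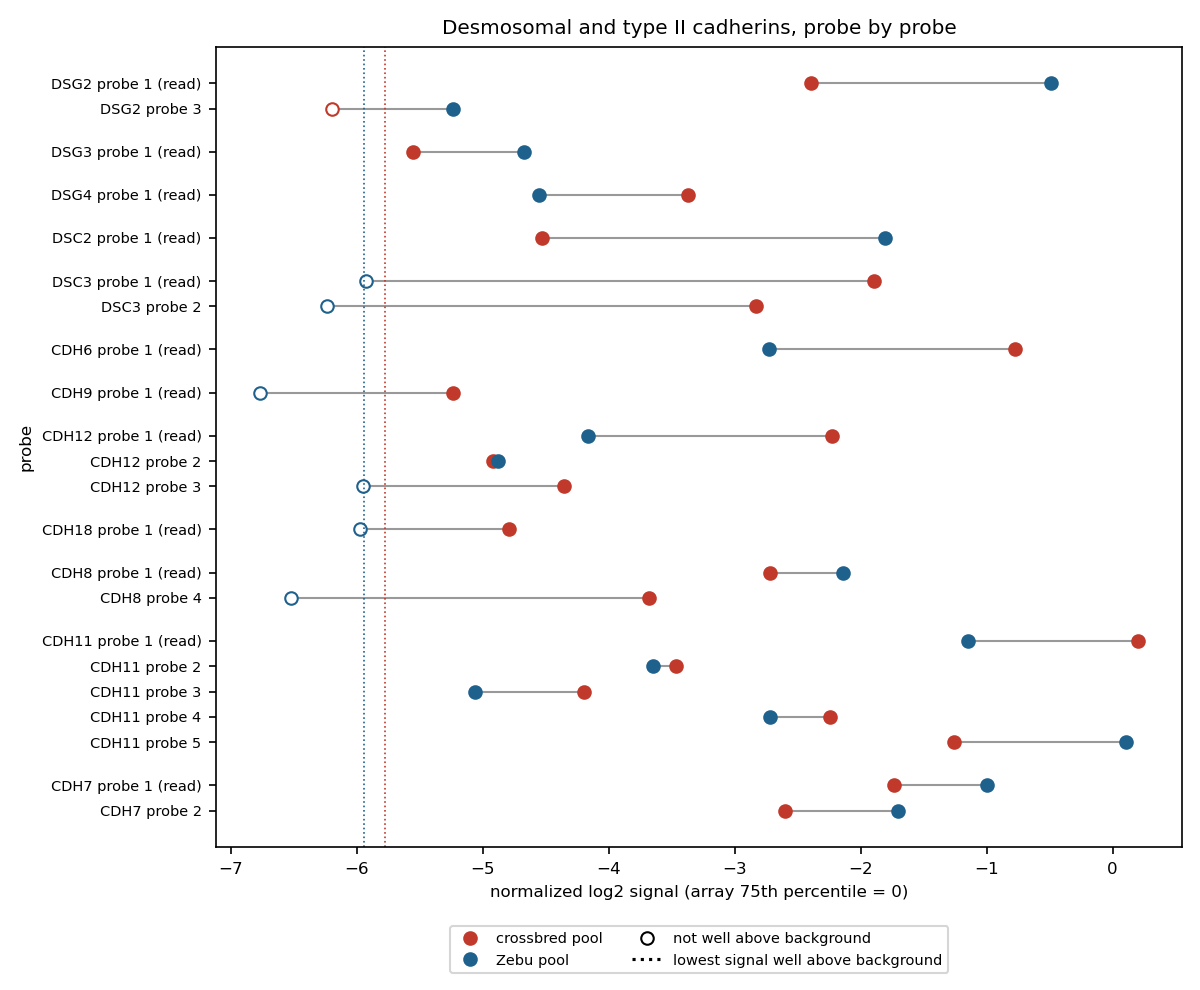
The normalized log2 signal (horizontal axis) of the crossbred pool (red) and the Zebu pool (blue) at each detected probe (vertical axis) of the desmosomal cadherins and of 7 type II cadherins. Open circles were not well above background, and dotted lines are the floors of -5.78 and -5.94. DSC2 and DSG2 have the crossbred signal to the left, DSC3 has it far to the right at both probes, and the probes of CDH11, CDH8 and CDH12 do not all point the same way.

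The 7 desmosomal genes lie side by side on chromosome 24, from 26684142 to 27201316. Along this stretch the differences changed sign, with DSG2 and DSG3 below 0, DSG4 above it, DSC2 below it and DSC3 above it. The only other gene name detected inside, a transcript without a symbol next to DSC2, differed by -1.79. CDH6, CDH9, CDH10, CDH12 and CDH18 share a stretch of chromosome 20 from 44747851 to 57306418. The 4 of them that were detected had values of 1.96, a bound of 0.70, 1.93 and a bound of 1.15. The only other gene name detected inside that stretch differed by 0.85, short of the threshold. All 298 gene names detected on chromosome 20 had a median of -0.08, and 5.70% of them were higher.

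How far the separate probes of a gene agree could be read from 48 members with several probes. In 24 genes, 37 further probes were well above background on both arrays, as was the probe read. Of these, 32 had the same sign as the probe read and 5 the opposite sign, with a median gap of 0.35 and a largest gap of 2.72, that of CDH11. The median gap is close to the spot SD of 0.34. The genes counted as higher or lower had 6 further detected probes, of which 4 also passed the threshold in the same direction. CDH6 and DSC2 rest on a single probe.

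**Figure D4:**
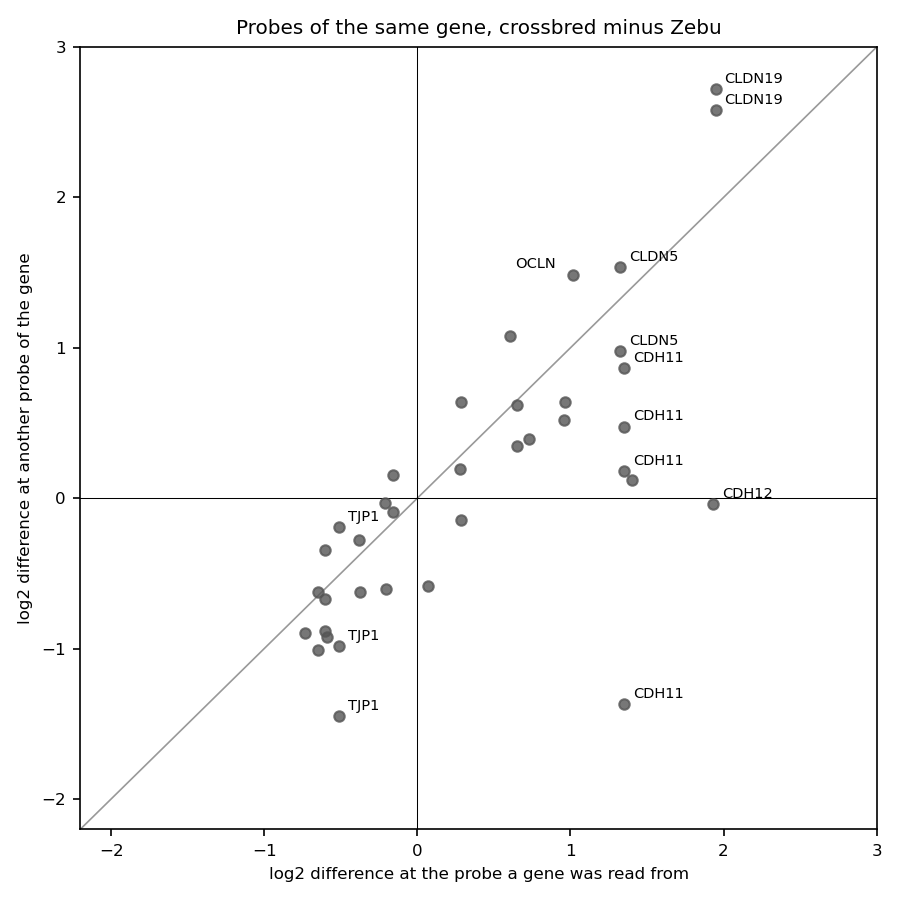
The log2 difference at a further probe (vertical axis) against that at the probe a gene was read from (horizontal axis), for 37 probes of 24 junction genes, all well above background on both arrays. The line marks equal values, and 32 points share their sign on both axes. CLDN19 lies above the line with both of its further probes and CDH11 has a point far below it.

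A separate list covered cytoplasmic and scaffold genes that anchor these membrane proteins, and further membrane proteins such as nectins, PERP, IGSF5 and pannexins. It had 75 names. The array held 58 of them, and 53 were detected with a median of -0.34, beside 0.17 for the junction genes and -0.05 for all gene names. The partner median was -0.15 with the mean of all probes and -0.21 after normexp correction. CTNNA3, IGSF5 and SYMPK were higher (5.66%, where 7.12% of all gene names were), and CTNNAL1, JUP, PERP and PANX2 were lower (7.55%, where 2.92% of all were). After normexp correction SYMPK alone was higher (1.89%, where 4.16% of all were), and CTNNAL1 and JUP were lower (3.77%, where 0.68% were). Both of these counts kept a CTNNAL1 spot in the dark patch of the crossbred array. Without that spot CTNNAL1 came to -1.50, at the threshold, and with the authors' values it was not counted. Several catenins lay below 0, as CDH2 did, and others lay above it. CTNNB1, or beta-catenin, read 2.89 in crossbred and 3.35 in Zebu, a difference of -0.46. CTNNA1, or alpha-catenin, differed by -0.44, and all 4 probes of each gene were below 0. CTNND1 differed by -0.38, but another of its probes by 0.56. CTNND2 differed by -0.82. CTNNA2 differed by 0.16, with 1.27 at its other probe, and CTNNA3, counted as higher, by 1.63.

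Among genes of the desmosome besides its cadherins, JUP, PERP and DSP had the sign of DSC2 and DSG2. JUP, plakoglobin, which binds desmosomal and classical cadherins, read -0.05 in crossbred and 1.66 in Zebu, a difference of -1.71, with -0.68 and -0.17 at its other probes. PERP, a membrane protein of desmosomes, was well above background only in Zebu. Its bound for the processed signal was 4.19-fold lower in crossbred, equal to its measured difference. After normexp correction PERP was not counted as lower. DSP, desmoplakin, differed by -1.02, while its other probe on both arrays gave 0.01. Among the plakophilins, PKP2 and PKP3 differed by -0.78 and -0.52, PKP1 by 0.42 and PKP4 by 0.06. DSP and the plakophilins were chosen for mention after their values were seen.

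CTNNA3, an alpha-catenin of heart and testis, read -0.39 and -2.03, a difference of 1.63 at its single probe. IGSF5, a junctional adhesion molecule, read -1.83 and -4.06, a difference of 2.23, with its other probes dim. SYMPK differed by 5.70 at the probe read, but by 0.66, 0.62 and 0.59 at its other probes. PANX2, a pannexin, differed by -2.25. CTNNAL1 had a spot in the dark patch of the crossbred array, and its spot outside the patch gave -1.50. Of the nectins, PVRL2 differed by -1.16 and PVRL4 by 0.63, and PVRL1 was well above background only in crossbred with a bound of 0.41.

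Cell type markers moved between the pools as well. Of 13 Sertoli markers on the array 10 were detected and 9 were lower in crossbred, with a median of -0.82. Among them, AMH differed by -1.39, GATA4 by -1.09, CLDN11, the main claudin of Sertoli cells, by -0.58, and DHH by -1.53. Their summed signal was 159 in crossbred and 246 in Zebu, and INHBB and GDNF were dim on both arrays. All 5 spermatogonial markers were below 0 with a median of -0.71, and all 5 peritubular and smooth muscle markers with a median of -0.77. All 4 spermatocyte markers were above 0, with a median of 0.52. All 8 spermatid markers were above 0 with a median of 1.69, and their summed signal was 615 in crossbred and 301 in Zebu. The Leydig markers had a median of -0.57. Of the textbook barrier genes reported here, TJP1, CLDN1, CDH2, GJA1, JAM2, DSC2 and DSG2 had the sign of the Sertoli list. GJB2 had it too by its bound, and OCLN and CLDN5 had the opposite sign. Among genes named above that are not textbook barrier genes, CTNNA1 and CTNNB1 had the Sertoli sign. CLDN19, TJP3 and CTNNA3 had the opposite sign. CLDN3, F11R, JAM3, CXADR, GJC1 and CDH1 were within the spot SD at the probe read. Of all 22842 gene names well above background on both arrays, 11942 were below 0. The part of these cell types in the junction differences was not tested.

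**Figure D5:**
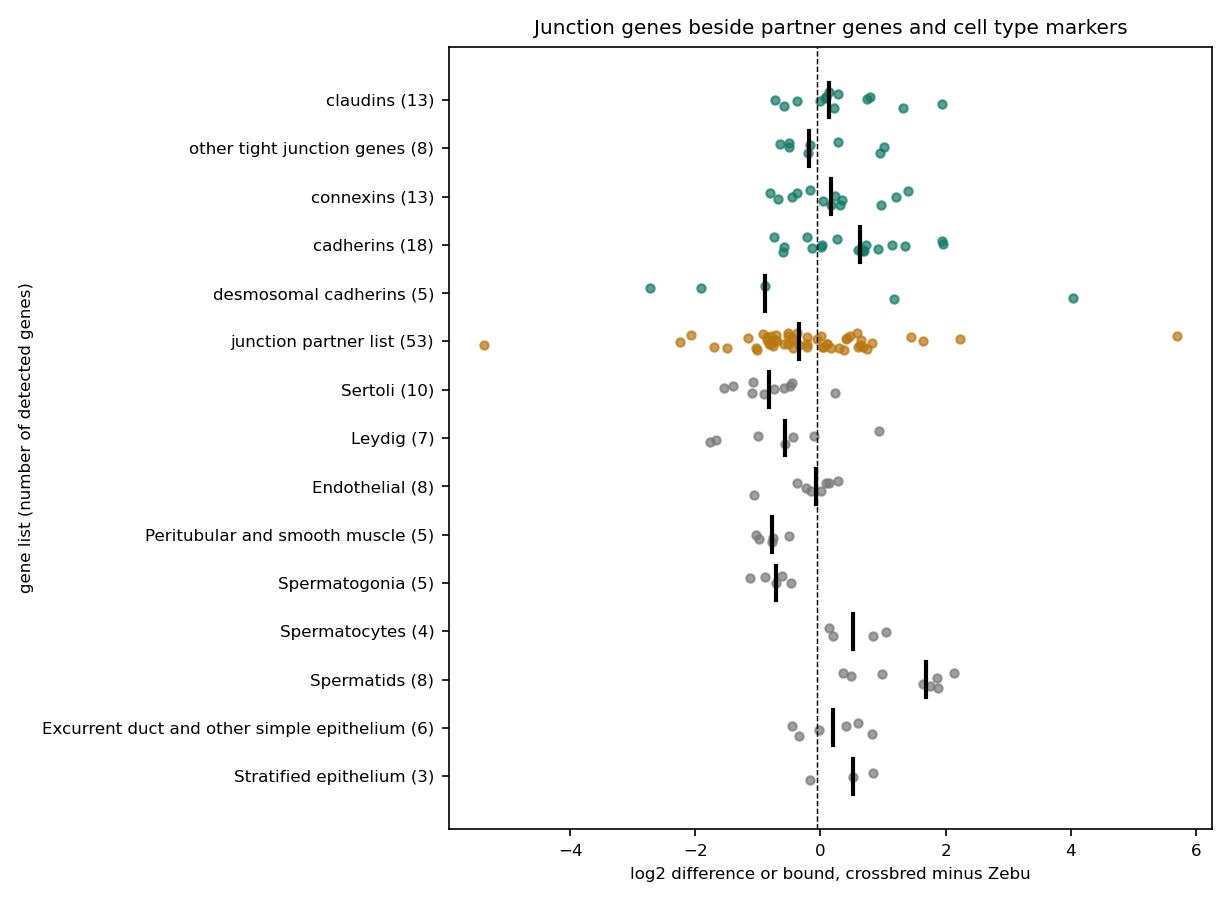
The log2 difference or bound (horizontal axis, crossbred minus Zebu) of each detected gene (points), with the list median as a black bar, for the 5 junction types (green), the partner list (orange) and the cell type markers (grey), with the number of detected genes in brackets. The dashed line is the median of all detected gene names, -0.05. The cadherin median is 0.63 and the desmosomal median -0.89, over 18 and 5 genes, and the points of most lists lie on both sides of 0.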

How the data were processed

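Testis RNA pools of 3 crossbred and 3 Zebu bulls were measured on 1 array each. The authors deposited the processed signal of each spot, an intensity that the scanner software (Agilent Feature Extraction 11.5.1.1) had corrected for background and trends within the array, together with its mean and local background intensity and its flags. The authors' deposited log2 values are the log2 signal minus the 75th percentile of the array. Their list of fold changes was not used, and 0 value columns belonged to other series.

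Here, log2 processed signals were averaged over a probe's spots and shifted by the 75th percentile of all non-control probes, without 13 outlier spots. No spot was saturated, and 72.0% of crossbred and 74.3% of Zebu spots were well above background. A bound took the dim array at its own value or at its floor, whichever was higher, and bounds entered the medians. The members and lists were chosen with earlier results of these data known. Named genes were those past the threshold at any probe, the textbook barrier genes, the extremes of each junction type and genes with opposing probes, and some of these are not reported here. Of the 74 symbols, 72 were found in the RefSeq gene table, and CLDN22 and CLDN24 were not. The steps were tested on simulated data. The alternatives were normexp (offset 50), a median shift, another percentile, quantile normalization, the authors' values, other thresholds and filters, other rules for several probes and spots left out by place. Python 3.11.15, numpy 2.4.6, pandas 2.3.3, matplotlib 3.10.9, R 4.3.3 and limma 3.58.1 were used.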

Additional observations from a re-analysis of the deposited data

How the results depend on the processing

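The median of the junction genes stayed between 0.12 and 0.22 and that of the partner list between -0.41 and -0.15, and no junction gene counted as higher or lower changed sign under any alternative run. Normexp correction left 3 junction genes higher (5.26%, where 4.16% of all gene names were), without CDH12 (1.31) and CDH9 (bound 0.40). It left 2 junction genes lower (3.51%, where 0.68% of all were). Of the partner genes it left 1 higher (1.89%) and 2 lower (3.77%), CTNNAL1 with its dark patch spot among the latter. Requiring both arrays to be well above background left 3 higher junction genes (5.77%, against 6.32% of all), without DSC3 and CDH9. It left 2 lower partner genes (4.08%, against 1.74%). The mean of all probes left 3 higher (5.26%, against 5.98% of all) and 1 lower (1.75%, against 1.82%), with DSG2 at -1.22. Counting every probe gave 11 higher (10.5%, against 6.14% of all probes) and 3 lower (2.86%, against 2.99%). A log2 threshold of 1 gave 12 higher junction genes, OCLN, CLDN5, CDH11, CDH18, DSG4 and GJB6 among those added (21.1%, against 12.8% of all), and 8 lower partner genes (15.1%, against 8.87%). A threshold of 2 gave 1 higher and 1 lower junction gene, DSC3 and DSC2, and at a linear fold of 1.5 there were 21 junction genes higher and 11 lower (36.8% and 19.3%), and 11 partner genes higher and 18 lower (20.8% and 34.0%), against 21.4% and 22.2% of all. Reading the brightest probe on either array, and running the alternatives on the partner list, was chosen after seeing the data, and the former added CLDN5 at 1.54. Counts under the other settings stayed within 1.5 times, and the causes of these changes were not tested. No paired analysis was possible because each group has 1 array. Genes near the background floor, such as CDH9, CLDN3 and DSG3, are the least certain.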
